A study of Mus musculus with 7 samples.

Results

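The genes of Polycomb repressive complex 2 (PRC2) were followed through RNA sequencing of mouse lung in 7 libraries. The set held 10 genes, taken by symbol from the 22447 genes in the files: the catalytic subunits Ezh2 and Ezh1, the core subunits Eed, Suz12 and Rbbp7, and the accessory subunits Jarid2, Aebp2, Mtf2, Phf1 and Phf19. All 10 were among the 14057 genes that reached 1 FPKM (fragments scaled by transcript length and by the mapped fragments of the library) in at least 2 libraries and were tested. The series holds 3 libraries of lung tumors from mice with the genotype EZH2 overexpression (tumor), 2 of normal lung with the same genotype (OE normal) and 2 of normal lung with the genotype wild type (WT). The labels give no strain, age, promoter or expressing cell type for the transgene, and do not say from how many animals the replicates came. Xist was at 0.816 and 63.6 FPKM in OE normal 1 and 2, and at 0.127, 74.2 and 60.6 FPKM in tumors 1, 2 and 3. OE normal 1 and 2 thus came from different animals, as did tumor 1 and tumors 2 and 3. The same is not known for tumors 2 and 3 or the WT lungs. The p-values below therefore reflect only the spread among these samples, which may in part be technical. The source is given as lung tissue, while the growth protocol is one for culturing minced nodules, and whether tumor RNA was taken before or after culture is not stated.

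PRC2 places methyl groups on lysine 27 of histone H3, a mark of silenced genes. EZH2 and EZH1 are alternative catalytic subunits, and neither is active without EED, which binds the mark and stimulates the enzyme, and SUZ12, the scaffold of the complex. EZH2 is the form of dividing and progenitor cells, while EZH1 predominates in resting, differentiated tissue. RBBP7 and its close relative RBBP4 bind histones. The complex then takes one of 2 forms, with a Polycomb-like protein (PHF1, MTF2 or PHF19) or with JARID2 and AEBP2, and these accessory proteins guide it to DNA.

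Tumor 1 stood apart from tumors 2 and 3. Across the tested genes, which are not independent replicates, Pearson's r on log2(FPKM + 1) was 0.970 between tumors 2 and 3 but 0.897 and 0.894 between tumor 1 and each of them. Relative depth, read from the steps between low values, ranged up to 1.87 times that of tumor 1, the shallowest library. Lung markers were present in every library, with 8 alveolar type 2 genes summing to 2072 to 3350 FPKM in normal lung and 7926 to 13018 FPKM in tumors. Other cell types differed between tumor and normal lung, with 10 endothelial genes at 115 to 138 FPKM in tumors and 1608 to 2332 FPKM in normal lung, and 8 macrophage genes at 449 to 1261 FPKM against 124 to 321 FPKM. The 7 fibroblast and matrix genes followed the split among tumors, at 401 FPKM in tumor 1, 72.7 and 103 FPKM in tumors 2 and 3, and 448 to 595 FPKM in normal lung. In such bulk samples fewer cells of a type and less RNA per cell cannot be told apart, and the part of cell composition in the results below was not tested.

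The promoters of the catalytic pair are shown because in tumors 2 and 3 Ezh2 was above, and Ezh1 below, every normal lung. That of Suz12 is shown because, like that of Ezh2, it holds an E2F word, though a different one. E2F words are binding sequences of the cell cycle factors known to drive EZH2. Each window is from RefSeq on build GRCm38.p6, runs 5′ to 3′ from 250 bases before to 50 bases after the annotated start, and has the E2F word in capitals. Ezh2 lies on the minus strand (chr6:47594981-47595280), Ezh1 on the minus strand (chr11:101226414-101226713) and Suz12 on the plus strand (chr11:79992856-79993155).
Ezh2: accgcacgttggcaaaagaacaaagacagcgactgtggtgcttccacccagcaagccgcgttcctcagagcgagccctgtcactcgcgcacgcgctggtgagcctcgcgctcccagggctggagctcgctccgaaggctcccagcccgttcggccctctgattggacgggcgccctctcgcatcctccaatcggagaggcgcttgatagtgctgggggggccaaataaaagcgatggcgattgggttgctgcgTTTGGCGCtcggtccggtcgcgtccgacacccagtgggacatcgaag
Ezh1: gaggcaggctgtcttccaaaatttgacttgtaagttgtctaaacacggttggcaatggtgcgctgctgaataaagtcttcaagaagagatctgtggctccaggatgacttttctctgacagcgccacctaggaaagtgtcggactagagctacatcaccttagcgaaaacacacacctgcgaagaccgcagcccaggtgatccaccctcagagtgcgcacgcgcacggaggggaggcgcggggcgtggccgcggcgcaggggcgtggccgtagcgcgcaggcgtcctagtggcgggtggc
Suz12: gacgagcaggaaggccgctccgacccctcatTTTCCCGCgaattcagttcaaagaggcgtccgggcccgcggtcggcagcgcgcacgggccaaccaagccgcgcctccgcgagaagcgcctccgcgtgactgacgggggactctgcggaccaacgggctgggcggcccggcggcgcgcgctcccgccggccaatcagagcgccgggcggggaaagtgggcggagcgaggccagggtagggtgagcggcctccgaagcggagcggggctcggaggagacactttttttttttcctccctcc

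All 10 genes had a window in the RefSeq table, 14 windows in all. The E2F words searched on both strands were TTTGGCGC, TTTCCCGC, TTTGCCGC and TTTCGCGC. They matched in 3 of the 14 windows, those of Ezh2, Suz12 and Phf19, while 2.26% of all 32851 windows in the table held one. The Ezh2 match began 3 bases after the annotated start, and those of Suz12 and Phf19 began 219 and 208 bases before it. The word TTTGAA, the cell cycle homology region, was in 4 of the 14 windows (Eed, Suz12, 1 of 3 for Aebp2 and 1 of 2 for Mtf2), against 17.9% of all windows. The Ezh2, Suz12 and Phf19 windows held 31, 41 and 38 CpG dinucleotides and that of Ezh1 23, where the median over all windows was 7. Each E2F word itself holds a CpG, so the share over all windows is not a matched background for the E2F matches. These matches describe the letters only.

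Ezh2, the main catalytic subunit and the gene named in the genotype, had the widest range of the 10 genes, its highest library being 9.13 times its lowest. It was at 3.72 and 2.58 FPKM in WT lung, at 10.2 and 11.5 FPKM in OE normal lung, and at 8.48, 23.5 and 22.6 FPKM in tumors 1, 2 and 3. Both WT libraries were below all others, and tumor 1 lay below both OE normal lungs, so that tumor and OE normal lung overlapped. Among the tested genes of its own library, Ezh2 ranked at the 26.1 and 19.5 percentiles in WT lung, at 53.2 and 57.2 in OE normal lung, and at 49.7, 79.3 and 78.6 in the tumors. Tumor 1 thus carried Ezh2 near the middle of its expressed genes, as OE normal lung did. On the log2(FPKM + 1) scale, which understates the change of low genes, Ezh2 exceeded its WT level by 2.10 in tumors (SE 0.43, limma adjusted p = 0.0118). This excess was 1.54 with the sex of the libraries as a covariate (limma adjusted p = 0.0278). It was 1.89 with a block for replicate number and no longer passed (limma adjusted p = 0.0502). Against OE normal lung the tumor excess was 0.58 (SE 0.43, limma adjusted p = 0.329), and it was 1.02 without tumor 1 (limma adjusted p = 0.00219), 0.34 without tumor 2 (limma adjusted p = 0.617) and 0.37 without tumor 3 (limma adjusted p = 0.602). In OE normal lung the excess over WT lung was 1.53 (SE 0.47, limma adjusted p = 0.406, unadjusted p = 0.0173). That difference was higher than the one found for 98.7% of tested genes, yet limma called 0 of 14057 genes in this comparison. Without tumor 1 in the shared estimate of the spread, the same difference of 1.53 had an SE of 0.15 and a limma adjusted p of 0.0388, the only 1 of 18 alternatives that called it, and one in which 302 of all genes were called. Whether the deposited Ezh2 value includes reads of the transgene is not stated.

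Ezh1, the paralog of resting cells, was lower in tumors than in normal lung. It was at 18.4 and 20.3 FPKM in WT lung, 18.1 and 18.5 FPKM in OE normal lung, and 14.1, 8.65 and 8.71 FPKM in tumors 1, 2 and 3. The normal lungs of both genotypes shared a level, and every tumor lay below all 4 of them. In tumor 1 both Ezh1 and Ezh2 lay below OE normal lung, so the opposite directions held against OE normal lung only in tumors 2 and 3. Ezh1 fell in tumors by 0.78 on the log2 scale against OE normal lung (SE 0.22, limma adjusted p = 0.0339) and by 0.86 against WT lung (SE 0.22, limma adjusted p = 0.0254). With the sex of the libraries as a covariate the difference from WT lung was -0.62 and no longer passed (limma adjusted p = 0.0836). OE normal lung differed from WT lung by -0.07 (SE 0.24, limma adjusted p = 1). These comparisons share libraries and are not independent of each other.

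The Ezh2 to Ezh1 ratio therefore covered a wide range. FPKM is scaled by transcript length, so levels of different genes can be set against each other, but only roughly, since the gene annotation used is not given. For Ezh2 this has a further limit, here and in the sums and ratios below, because it is not stated whether transgene reads are counted. The ratio was 0.202 and 0.127 in WT lung, 0.561 and 0.621 in OE normal lung, 0.60 in tumor 1 and 2.72 and 2.59 in tumors 2 and 3. Ezh1 had the higher FPKM in all 4 normal lungs and in tumor 1, and Ezh2 had the higher FPKM in tumors 2 and 3. Mean log2 ratios were 0.69 ± 1.24 (SD, n = 3), -0.76 ± 0.10 (SD, n = 2) and -2.64 ± 0.47 (SD, n = 2) in tumor, OE normal and WT lung. Tumor and WT lung did not overlap (difference 3.34, two-sided exact permutation p = 0.2, the smallest possible for 3 against 2 libraries). OE normal and WT lung did not overlap either (difference 1.88, exact p = 0.333, the smallest possible for 2 against 2). Tumor and OE normal lung overlapped (difference 1.45, exact p = 0.4). Over the 20 tests of ratios the lowest Benjamini-Hochberg adjusted value was 0.476, so none of these ratio differences could be called at this number of libraries.

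The summed level of the catalytic pair varied less than the share of Ezh2 in it. Part of this is arithmetic, since a sum changes by a smaller factor than its most changed part. Whether Ezh1 and Ezh2 made up for each other was not tested. Ezh1 plus Ezh2 came to 22.2 and 22.9 FPKM in WT lung, 28.3 and 30.1 FPKM in OE normal lung, and 22.6, 32.2 and 31.3 FPKM in tumors 1, 2 and 3. The highest library was 1.45 times the lowest for the sum. The share of Ezh2 in it went from 11.3% and 16.8% in WT lung through 35.9% and 38.3% in OE normal lung and 37.5% in tumor 1 to 73.1% and 72.2% in tumors 2 and 3. Tumor 1 had the share of OE normal lung at the summed level of WT lung.

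**Figure D1:**
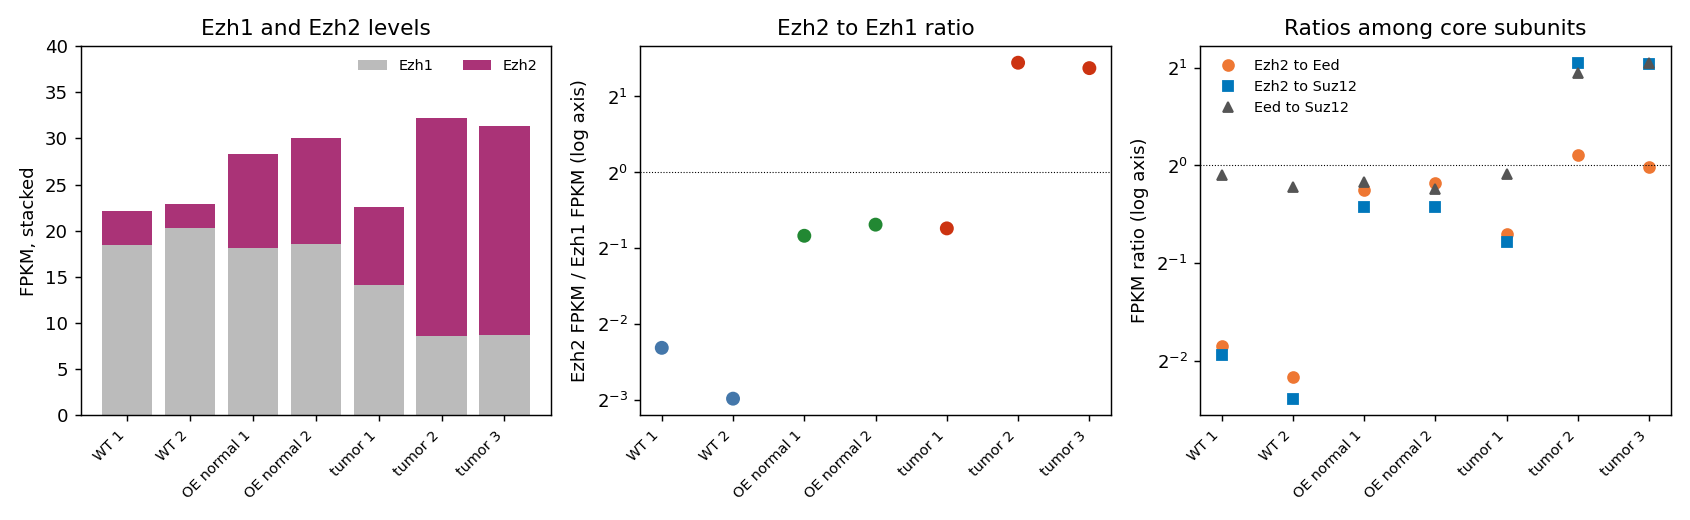
Left, stacked FPKM of Ezh1 and Ezh2 in each of the 7 libraries; middle, the Ezh2 to Ezh1 ratio of FPKM on a log axis, colored by group; right, ratios of FPKM among Ezh2, Eed and Suz12 on a log axis. The stacked heights run from 22.2 to 32.2 FPKM, while the ratio in the middle runs from 0.127 to 2.72, and the dotted lines mark a ratio of 1.

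Among the core partners, Eed and Suz12 parted in tumors 2 and 3. Eed, the subunit that reads the mark, was at 13.3 and 11.5 FPKM in WT lung, 12.1 and 13.1 FPKM in OE normal lung, and 13.7, 21.9 and 22.8 FPKM in tumors 1, 2 and 3. Tumor 1 was just above the highest normal lung and the other tumors well above it. The tumor mean stood 0.56 above OE normal lung (SE 0.23, limma adjusted p = 0.103). It stood 0.58 above WT lung (SE 0.23, limma adjusted p = 0.0941), and 0.30 with sex as a covariate (limma adjusted p = 0.309). Against all 4 normal lungs as one group it was 0.57 (SE 0.18, limma adjusted p = 0.0347), a call that 10 of 17 alternatives did not keep. Suz12, the scaffold, was at 14.2 and 13.5 FPKM in WT lung, 13.7 and 15.5 FPKM in OE normal lung, and 14.6, 11.4 and 11.0 FPKM in the tumors. Its tumor 1 value lay among the normal lungs, and no comparison passed (limma adjusted p = 0.270 and 0.422 for tumor against OE normal and WT lung). The Eed to Suz12 ratio of FPKM was between 0.844 and 0.943 in the 4 normal lungs and tumor 1, and 1.93 and 2.07 in tumors 2 and 3.

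Rbbp7, the histone-binding subunit, had the highest level of the 10 genes in every library except the WT lungs, where Phf1 exceeded it. It was at 39.9 and 37.4 FPKM in WT lung, 38.5 and 41.8 FPKM in OE normal lung, and 50.1, 50.3 and 55.9 FPKM in the tumors. All 3 tumors, tumor 1 included, exceeded all normal lungs. Rbbp7 rose by 0.37 against OE normal lung (SE 0.11, limma adjusted p = 0.0426) and by 0.42 against WT lung (SE 0.11, limma adjusted p = 0.0275). Rbbp7 is on the X chromosome, and the libraries differed in sex: Xist was at 60.6 to 74.2 FPKM in tumors 2 and 3 and OE normal 2 and under 1 FPKM in the other libraries. With sex as a covariate the difference against WT lung was 0.36 (limma adjusted p = 0.0834) and that against OE normal lung 0.35 (limma adjusted p = 0.0430).

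Ratios of RNA levels, which do not measure protein, were also set against the core. The Ezh2 to Eed ratio was 0.279 and 0.223 in WT lung, 0.839 and 0.881 in OE normal lung, and 0.617, 1.08 and 0.990 in tumors 1, 2 and 3. WT lung lay below all other libraries, and OE normal lung lay within the range of the tumors (difference of mean log2 ratios 0.02, exact permutation p = 1). The Ezh2 to Suz12 ratio was 0.261 and 0.191 in WT lung, 0.745 and 0.743 in OE normal lung, and 0.582, 2.07 and 2.05 in the tumors. The group means of the Ezh2 to Rbbp7 ratio kept the order WT, OE normal, tumor, at 0.0811 ± 0.0172 (SD, n = 2), 0.270 ± 0.00807 (SD, n = 2) and 0.347 ± 0.157 (SD, n = 3). Both catalytic genes together, set against the mean of Eed and Suz12, gave 1.61 and 1.83 in WT lung, 2.20 and 2.10 in OE normal lung, and 1.60, 1.94 and 1.85 in the tumors. On this measure the OE normal lungs were the highest libraries, and tumor and WT lung overlapped (difference 0.06 on the log2 scale, exact permutation p = 0.6).

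**Figure D2:**
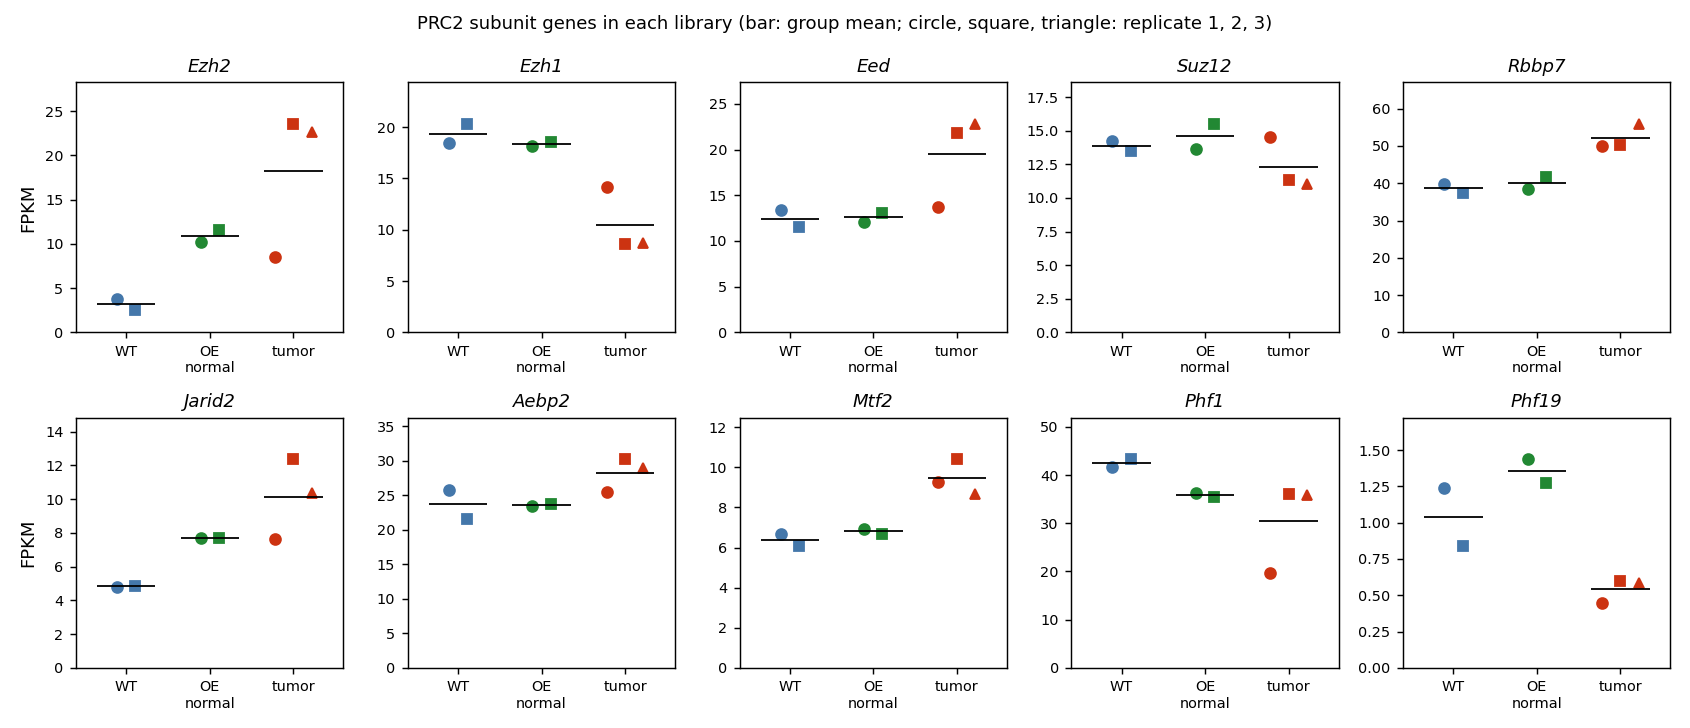
FPKM of each of the 10 genes in the 7 libraries, with points for libraries, bars for group means and separate linear axes that start at 0. Circles mark replicate 1 of each group. Tumor 1 (circle among the tumors) lies beside the normal lungs for Eed and Suz12, and beside OE normal but above WT lung for Ezh2 and Jarid2. It is lowest of all libraries for Phf1 and Phf19, while all 3 tumors exceed the normal lungs for Rbbp7 and Mtf2.

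Of the pair that marks the second form of the complex, Jarid2, which helps recruit and activate PRC2, followed the order of Ezh2. It was at 4.79 and 4.87 FPKM in WT lung, 7.68 and 7.69 FPKM in OE normal lung, and 7.65, 12.3 and 10.4 FPKM in tumors 1, 2 and 3. The WT libraries were again the lowest, and tumor 1 again matched OE normal lung. Jarid2 rose in tumors against WT lung by 0.91 (SE 0.20, limma adjusted p = 0.0142). The rise was 0.71 with sex as a covariate (limma adjusted p = 0.0466). It was 0.88 with a block for replicate number and no longer passed (limma adjusted p = 0.0659). OE normal lung stood 0.57 above WT lung (SE 0.22, limma adjusted p = 0.518, unadjusted p = 0.0360), higher than that of 92.6% of tested genes. Aebp2, a DNA-binding cofactor, was at 21.6 to 25.8 FPKM in the normal lungs and at 25.5, 30.2 and 28.9 FPKM in the tumors, and passed in no comparison. The Jarid2 to Aebp2 ratio was 0.186 and 0.226 in WT lung and 0.30 to 0.409 in the other 5 libraries.

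The Polycomb-like genes differed in pattern. Mtf2 was at 6.66 and 6.07 FPKM in WT lung, 6.92 and 6.69 FPKM in OE normal lung, and 9.29, 10.4 and 8.67 FPKM in tumors, with all tumors above all normal lungs. It rose by 0.42 against OE normal lung (SE 0.13, limma adjusted p = 0.0450) and by 0.50 against WT lung (SE 0.13, limma adjusted p = 0.0248). With sex as a covariate neither passed (limma adjusted p = 0.0509 and 0.0621). Phf1 was the most abundant of these genes, at 41.6 and 43.2 FPKM in WT lung, 36.2 and 35.5 FPKM in OE normal lung, 19.6 FPKM in tumor 1 and 35.8 FPKM in tumor 3, with tumor 2 just above tumor 3. Tumors 2 and 3 matched OE normal lung and only tumor 1 was far below it. No comparison of Phf1 passed (limma adjusted p = 0.445 and 0.177 for tumor against OE normal and WT lung). Phf19, a form of proliferating cells, was near the expression minimum, at 1.24 and 0.841 FPKM in WT lung, 1.44 and 1.27 FPKM in OE normal lung, and 0.450, 0.60 and 0.583 FPKM in the tumors. Its difference from OE normal lung was -0.61 (SE 0.14, limma adjusted p = 0.0189), and quantile normalization turned this difference to 0.12. Phf19 reached 1 FPKM in no tumor and entered the test only through normal lungs, the side on which it is higher, so its call supports no direction and is set apart in the counts below.

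The summed RNA levels of the accessory genes of the 2 forms were also set against each other. This does not measure the balance of the forms, since the Polycomb-like proteins are alternatives while JARID2 and AEBP2 join together. The sum of Mtf2, Phf1 and Phf19 was 1.62 and 1.90 times that of Jarid2 and Aebp2 in WT lung, 1.43 and 1.38 times in OE normal lung, and 0.884, 1.10 and 1.15 times in tumors 1, 2 and 3. The groups did not overlap on this ratio, which was computed after the values of its genes had been seen and was not tested. Within the Polycomb-like sum, Mtf2 made up 12.1% to 13.4% in WT lung, 15.4% and 15.5% in OE normal lung, and 31.7%, 22.1% and 19.3% in the tumors. Phf1 was the larger part throughout, from 66.8% in tumor 1 to 86.2% in WT 2.

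Counted over all 10 genes, 2 rose (Rbbp7 and Mtf2) and 2 fell (Ezh1 and Phf19) in tumors against OE normal lung, 4 called in all and 3 leaving out Phf19, which passed the filter only through normal lungs, where limma called 38.1% of all genes tested (13.1% higher and 24.9% lower). The median log2 difference of the 10 genes was 0.29, against -0.11 over all genes tested. Against WT lung 4 rose (Ezh2, Jarid2, Rbbp7 and Mtf2) and 1 fell (Ezh1), where 38.2% of all genes were called (15.0% higher and 23.2% lower), with a median of 0.33 against -0.06. Against all 4 normal lungs 3 rose (Eed, Rbbp7 and Mtf2) and 2 fell (Ezh1 and, again admitted only through normal lungs, Phf19), where 47.3% of genes were called (19.0% higher and 28.2% lower), with a median of 0.32 against -0.08. Between OE normal and WT lung 0 of the 10 were called and 0% of all genes, while 2 of the 10 (Ezh2 and Jarid2) and 1208 of all genes had an unadjusted p under 0.05 in limma, the one tool run. The tumor shares called among the 10, both directions together, were close to those of all genes. By direction, rises made up a larger share of the 10 than of all genes and falls a smaller one, which was not tested.

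Scaling and single libraries decided several of these calls. Rescaling to TPM (transcript shares that sum to the same total in every library) moved the median of all genes from -0.11 to -0.33 for tumor against OE normal lung, and then 0 of the 10 rose and 3 fell (Ezh1, Suz12 and, with the same limit, Phf19). Of the calls against OE normal lung, 0 were left without tumor 2, tumor 3, OE normal 1 or OE normal 2, and only that of Phf19 without WT 1 or WT 2. Of the calls against WT lung, 0 were left without WT 1 or WT 2, 2 without tumor 2, and 3 without tumor 3 or either OE normal lung. Against all 4 normal lungs 3 genes were called without tumor 2 or tumor 3. Without tumor 1, 9 of the 10 genes were called against OE normal lung (all but Phf1), where 68.8% of all genes were, and 9 against WT lung (all but Phf19), where 67.5% were. In that fit Eed differed by 0.78 between tumors 2 and 3 and OE normal lung (SE 0.095, limma adjusted p = 0.00112) and Suz12 by -0.35 (SE 0.09, limma adjusted p = 0.0160). Without tumor 2 or tumor 3 the Eed difference was 0.46 or 0.43 (limma adjusted p = 0.246 and 0.248). That of Suz12 was then -0.18 or -0.17 (limma adjusted p = 0.501 and 0.525). Tumors 2 and 3 both had high Xist and are not known to come from different animals, so their small spread may not be that among animals.

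**Figure D3:**
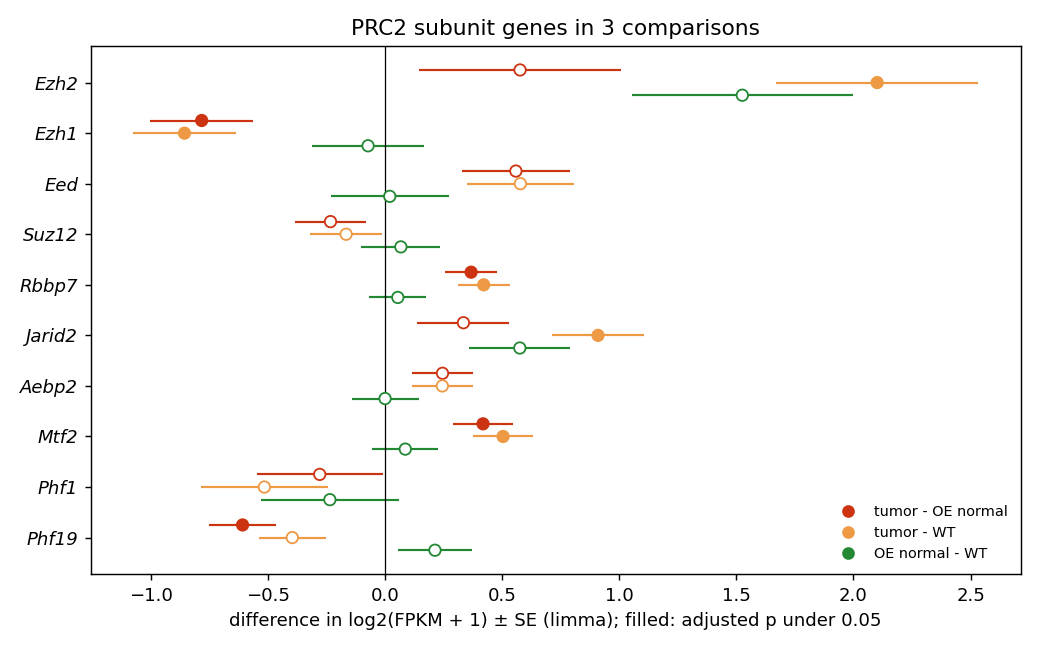
Difference in log2(FPKM + 1) for each gene in 3 comparisons, with bars for the SE from limma and filled points for an adjusted p under 0.05. Ezh2 spans 0.58, 2.10 and 1.53, the tumor differences of Ezh1 lie at -0.78 and -0.86, and the OE normal against WT points of the other core genes lie within 0.07 of zero; the Phf19 points against tumors turn positive under quantile normalization.

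The genes whose pattern over the 7 libraries was nearest to that of Ezh2 were sought among 9636 other tested genes with a mean of at least 5 FPKM, by the root mean square difference of centred log2(FPKM + 1) values. The nearest were Naip2 (0.281), the inflammasome adaptor Pycard (0.324), Naip5 (0.332), the heme oxygenase Hmox1 (0.342) and the phosphatase Ptpn18 (0.345). Naip2 and Naip5 are near-identical relatives, so fragments of one could have been assigned to the other. Naip2 was at 1.70 FPKM or less in WT lung, 4.11 and 4.72 FPKM in OE normal lung, and 6.47, 14.3 and 15.1 FPKM in the tumors. Pycard was at 2.83 and 3.00, 8.44 and 9.03, and 7.37, 12.5 and 12.9 FPKM in the same libraries, with tumor 1 below OE normal lung as for Ezh2. Jarid2 came at rank 126 of this order (0.581), the nearest of the PRC2 genes, followed by Eed at rank 792 (0.720). The 8 macrophage genes summed to 155 and 124 FPKM in WT lung, 321 and 268 FPKM in OE normal lung, and 1261, 449 and 989 FPKM in tumors 1, 2 and 3, so they shared the order of groups with Ezh2 but were highest in the tumor with the least Ezh2. Their part in the Ezh2 values was not tested.

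Ezh1 had neighbors at smaller distances, but the distance was not scaled to the range of the gene. The highest library of Ezh1 was 2.35 times its lowest, against 9.13 times for Ezh2, so the distances of the 2 genes cannot be compared. Pphln1 (0.0442), the syntaxin Stx2 (0.0461), Fam219b (0.0505), Lace1 (0.0589) and the ubiquitin ligase Mib2 (0.0608) were the nearest. Stx2 was at 10.1 and 10.4 FPKM in WT lung, 9.63 and 10.2 FPKM in OE normal lung, and 6.86, 4.25 and 4.30 FPKM in the tumors, with the same step between tumor 1 and tumors 2 and 3. Of the PRC2 genes Suz12 was nearest to Ezh1, at rank 1799 (0.331).

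**Figure D4:**
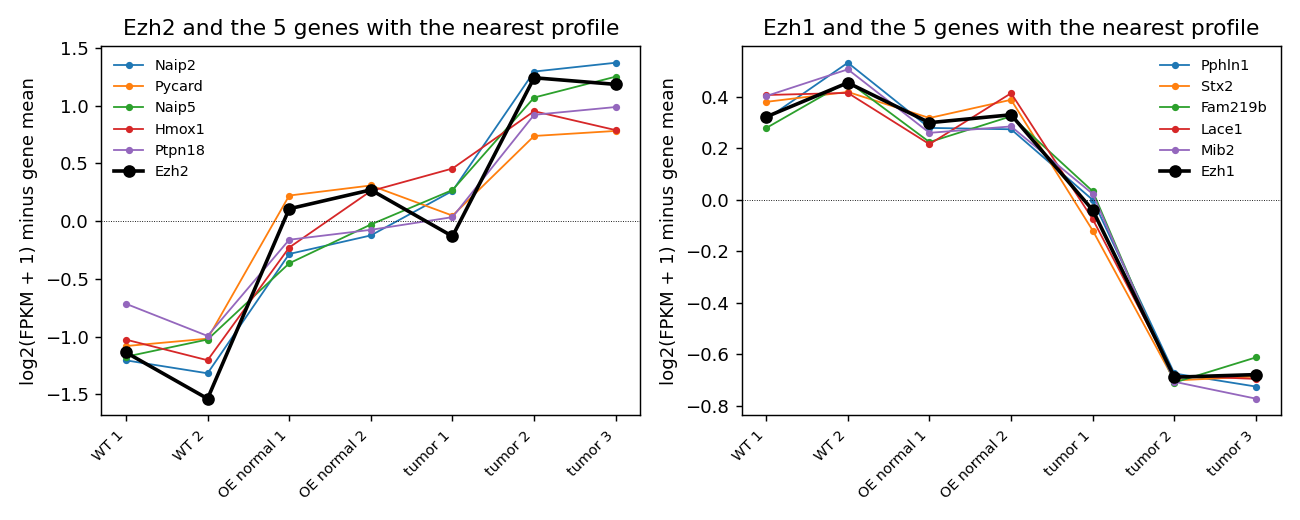
Centred log2(FPKM + 1) over the 7 libraries for Ezh2 (left) and Ezh1 (right), each as a thick line with the 5 genes of nearest profile. The lines of Ezh2 and its neighbors climb from WT through OE normal lung to tumors 2 and 3, and those of Ezh1 are level over the normal lungs and step down in tumor 1 and again in tumors 2 and 3.

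Other genes of the Polycomb pathway were compared between tumor and all 4 normal lungs, where 47.3% of all genes tested were called, 19.0% higher and 28.2% lower. Rbbp4, the relative of Rbbp7, was at 38.6, 30.8 and 29.0 FPKM in tumors and 28.2 to 30.1 FPKM in normal lung (limma adjusted p = 0.258). Of 3 other PRC2-associated genes tested, Rbbp4 among them, 1 rose, Lcorl, from 2.03 ± 0.40 (SD, n = 4) to 3.50 ± 0.450 FPKM (SD, n = 3; limma adjusted p = 0.0170). Of 19 genes of PRC1, the complex that binds the PRC2 mark, 3 rose and 3 fell, 6 called of 19 and so a smaller share than of all genes, with a median of 0.15. The reader subunit Cbx7 fell from 29.6 ± 4.48 to 11.5 ± 2.58 FPKM (SD, n = 4 and 3; limma adjusted p = 0.00104) and Pcgf5 from 9.16 ± 0.652 to 3.51 ± 0.161 FPKM (limma adjusted p = 1.40e-04). Pcgf2 rose from 11.2 ± 1.65 to 24.6 ± 3.60 FPKM (limma adjusted p = 0.00130).

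Genes of other histone-modifying enzymes and their complexes were called 1 of 3, 4 of 7 and 2 of 7 times in the same comparison, against 47.3% of all genes. Of 3 H3K27 demethylases 1 fell, Kdm6b, at 14.8, 12.0 and 11.3 FPKM in tumors and 15.3 to 17.2 FPKM in normal lung (limma adjusted p = 0.0462), a call lost in 11 of 17 alternatives. Of 7 genes of the H2A deubiquitinase complex 3 rose and 1 fell, led by its subunit Asxl1, from 13.1 ± 1.13 to 26.3 ± 4.66 FPKM (SD, n = 4 and 3; limma adjusted p = 0.00156). Of 7 H3K36 methyltransferases and H3K27 acetyltransferases 2 fell, the H3K36 methyltransferases Setd2 (-0.40, SE 0.12) and Whsc1l1 (-0.36, SE 0.10), while under quantile normalization 2 of the 7 rose and 0 fell.

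Cell cycle genes, with which Ezh2 is known to be expressed, were compared in the same way, against the same 47.3% of all genes called (19.0% higher and 28.2% lower). Of 16 E2F, pocket protein and other cell cycle transcription regulators tested, 3 rose and 3 fell, 6 called of 16, with a median of 0.01. The activator E2f3 rose from 2.04 ± 0.263 to 5.86 ± 0.413 FPKM (SD, n = 4 and 3; limma adjusted p = 2.74e-04), and the E2F inhibitor Rb1 fell from 11.2 ± 1.40 to 5.25 ± 1.56 FPKM (limma adjusted p = 0.00399). Of 24 proliferation genes 4 rose and 0 fell, led by the replication helicase subunit Mcm7 (0.84, SE 0.13, limma adjusted p = 0.00171), and with median-of-ratios scaling 9 rose. Summed, these 24 genes came to 148 and 114 FPKM in WT lung and 151 and 180 FPKM in OE normal lung. The tumors were at 175, 211 and 195 FPKM, so tumors 2 and 3, which had the most Ezh2, were also highest on this sum. Not every member followed this order. Top2a was at 4.27 and 1.21 FPKM in WT lung, 4.33 and 5.74 FPKM in OE normal lung, and 5.26, 3.63 and 3.06 FPKM in the tumors. Mki67 was at 3.33 and 1.31, 3.94 and 4.83, and 4.22, 4.42 and 3.72 FPKM in the same libraries. The part of cell division in the Ezh2 values was not tested.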

How the data were processed

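RNA sequencing of 7 mouse lung libraries was analysed, 3 of tumors and 4 of normal lung. The authors deposited FPKM values per gene for each library, made with Cufflinks 2.0.0 and TopHat or TopHat2 on mm9, per the submitters' processing notes. No source used here gives the gene annotation or says whether transgene reads count toward Ezh2, and read depth is unknown. Of 22474 rows per file, 27 whose symbols had become dates were left out. Genes at 1 FPKM or more in at least 2 libraries were tested as log2(FPKM + 1) with limma 3.58.1 (R 4.3.3, mean-variance trend, two-sided, Benjamini-Hochberg over 14057 genes, threshold 0.05). One fit had 3 groups and another set tumors against all 4 normal lungs, and both were tested on simulated data. Ratios of FPKM were compared by exact permutation (scipy 1.17.1, Python 3.11.15), and figures were drawn with matplotlib 3.10.9. The members and gene lists were chosen with earlier results of these data known. Named beside the 10 members were at most 3 called genes per list, by size of difference among those whose groups did not overlap. The 5 genes of nearest profile to Ezh2 and to Ezh1 were named as well. Rbbp4, Top2a and Mki67 were added after their values were seen. Alternatives were another pseudocount, filters, scalings (median of ratios, TPM, quantile), no trend, fits on the compared groups alone, a block for replicate number, sex as a covariate and each library left out.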

Additional observations from a re-analysis of the deposited data

How the results depend on the processing

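With 2 or 3 libraries per group the calls depend on single libraries, and permutation of ratios cannot pass 0.05. Of 706 values of the 10 genes under alternatives, 582 kept direction and side of the threshold, 85 lost the call, 21 gained one and 18 reversed, 14 of these in OE normal against WT lung; Phf19 has no value under the filter at 5 FPKM. The causes were not tested. Of the 10 genes, those called in tumor against OE normal lung (4) numbered 2 with TPM without small RNA genes, 1 with only the groups compared, and 0 to 9 with 1 library left out. Against WT lung (5) they numbered 3 with only the groups compared, 2 with the sex covariate, and 0 to 9 with 1 library left out. Between OE normal and WT lung (0) they numbered 0 to 1. Against all normal lungs (5) they numbered 3 with TPM, with or without small RNA genes, and 3 to 9 with 1 library left out.

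Same-numbered libraries did not deviate together (r -0.0292 to 0.0341). In a group of 2 libraries the deviations mirror each other, so this check cannot exclude pairing. Xist was low in tumor 1 and OE normal 1 and high in tumor 2 and OE normal 2. Whether the numbers pair the samples is not known. With a replicate block, 0, 0 and 2 of the 10 genes were called against OE normal, WT and all normal lungs, and 3130, 2999 and 4278 of all genes, with 1 gene between OE normal and WT lung. Under the replicate block the lists below had 0 (other PRC2-associated), 0 (H3K27 demethylases), 0 (H3K36 and acetyltransferases), 1 (H2A deubiquitinase) and 1 (proliferation) calls.

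Over all genes, 5350 calls against OE normal lung became 2877 to 9604 with 1 library left out, 5371 against WT lung became 2411 to 9429, and 6645 against all normal lungs became 4668 to 9292. The 0 calls between OE normal and WT lung became 1 with a pseudocount of 0.1, 2 with no filter, 3 with only the groups compared, 1 with the sex covariate and 0 to 302 with 1 library left out. Of calls against OE normal lung 34.5% were higher, 18.2% under TPM and 56.0% under quantile normalization.

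Against all normal lungs, the other PRC2-associated list (1 call) had 0 with the 5 FPKM filter, 2 with median-of-ratios, 0 with TPM and 0 to 2 with 1 library left out. The H3K27 demethylases (1) had 0 with median-of-ratios, quantile, no trend or sex, and 0 to 1 with 1 library left out. The H3K36 and acetyltransferases (2) had 1 with median-of-ratios or sex, and 0 to 3 with 1 library left out. With 1 library left out the H2A deubiquitinase list (4) had 1 to 5 and PRC1 (6) had 5 to 10. Proliferation genes (4) had 2 with the 5 FPKM filter, 9 with median-of-ratios, 2 with TPM, 14 with quantile, 2 with sex and 1 to 7 with 1 library left out.

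Reversed differences were those of Phf19 under quantile normalization (0.12 against OE normal, 0.18 against WT, 0.15 against all normal lungs) and of Phf1 against OE normal lung (-0.423 to 0.00103 with 1 library left out, reversed without tumor 1). Between OE normal and WT lung they were Eed (-0.0296 with median-of-ratios, -0.0298 with quantile, -0.19 with sex), Ezh1 (0.0552 with TPM, 0.10 with sex), Aebp2 (0.13 with TPM, 0.0088 with quantile) and Mtf2 (-0.0132 with quantile). With 1 library left out, that comparison gave -0.0778 to 0.116 for Eed, -0.0183 to 0.152 for Suz12, -0.00381 to 0.111 for Rbbp7 and -0.124 to 0.123 for Aebp2. With 1 library left out the log2 ratio of Ezh2 to Eed, tumor against OE normal lung, ran from -0.137 to 0.264, that of Ezh2 to Rbbp7 from -0.0453 to 0.688, and that of both catalytic genes to the core, tumor against WT lung, from -0.0325 to 0.155. Ratio tests that leave 1 library in a group have no p.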

Other observations

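Kdm6a, an X-linked H3K27 demethylase known to escape X inactivation, and its Y-linked relative Uty followed the sex of the libraries rather than the groups. Kdm6a was at 10.7, 10.5 and 13.2 FPKM in tumors 2 and 3 and OE normal 2, where Xist was at 74.2, 60.6 and 63.6 FPKM. It was at 6.08, 7.47, 6.64 and 6.37 FPKM in tumor 1, OE normal 1 and both WT lungs, where Uty was at 5.31, 3.96, 3.91 and 3.64 FPKM. The ranges did not overlap, and this split was not tested. Tumors 2 and 3, which had the most Ezh2, were both in the Xist group and tumor 1 was not, so sex and the split among tumors cannot be told apart. OE normal 2, also with Xist, was at 11.5 FPKM for Ezh2, against 10.2 FPKM in OE normal 1.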
